A study of Arabidopsis thaliana with 12 samples.

Results

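Wild-type seedlings of Arabidopsis thaliana that had grown on 3B7N were compared with wild-type seedlings that had grown on DMSO. The comparison used 3 arrays of each group, 6 of the 12 arrays of the study, with each array assigned by its sample title. 3B7N is 3-bromo-7-nitroindazole, which inhibits the mammalian enzymes that make nitric oxide, and it was present in the growth medium at 15 µM. DMSO, dimethyl sulfoxide, is the solvent control, and its concentration is not given in the sources used here. Both groups were Col-0 without a transgene or mutation named in the labels. Their seeds lay on the agar medium for 3 days in the cold and dark and then spent 4 days in unbroken blue light (5 µmol m-2 s-1), after which whole 4-day-old seedlings were frozen for RNA. The remaining 6 arrays hold the double mutant cry1cry2, which lacks the cryptochromes CRY1 and CRY2, under the same 2 media, and they enter below as 3 arrays a group. The title of the study concerns elongation of the hypocotyl, the seedling stem, that chemicals induce in blue light, and its design text speaks of 3 chemicals, of which 1 is among these samples.

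In blue light, cryptochromes hold the hypocotyl short, open the cotyledons and switch on pigment synthesis. They do so in part by restraining PIF transcription factors, which promote elongation, and by restraining the COP1 ubiquitin ligase, which removes light-promoting factors such as HY5. Elongation growth draws on auxin, gibberellin and wall-loosening enzymes, while flavonoids, carotenoids and photosynthetic proteins accumulate as a seedling greens.

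Signals are given as log2 of the processed signal relative to the 75th percentile of the same array, so a value of 0 marks that percentile, and levels of different genes are not comparable. The call rule asked for an adjusted p under 0.05 in limma and a log2 difference of at least 1 in size, which is a 2-fold change. "Rose" and "fell" below mean called. Of 20487 genes tested, 1207 rose (5.89%) and 1863 fell (9.09%), 15% called in all. These shares are the background for the counts of each gene list below. The median difference over all tested genes was -0.06, so a negative difference was the more common sign over all genes. With arrays scaled to their median instead, 1539 rose and 1380 fell, which made 52.7% of calls higher in place of 39.3%, and the median over all genes was 0.08. Counts of negative differences in the lists below are given without a share over all genes, and they depend in part on the scaling. Differences of at least 2 log2 units were reached by 377 of the genes that rose and 297 that fell, and differences of at least 4 by 42 and 28. The 2 groups did not overlap in 49.9% of all tested genes, 21.7% higher and 28.2% lower, so a gap between the groups is not by itself a feature of a gene. The labels do not say whether replicate arrays stem from separate cultures, and the p-values measure the spread between these samples. The same comparison in cry1cry2 called 3.73% of genes (2.1% higher and 1.63% lower). The interaction subtracts the wild-type difference from the mutant difference and was called for 18.6% (12.7% higher and 5.91% lower). In whole seedlings, fewer cells of a type and less RNA per cell cannot be told apart.

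The arrays were spread unevenly over slides, the glass carriers that hold 4 arrays each here. Slide 1 held the 3 DMSO arrays and 3B7N array 1, and slide 2 held 3B7N arrays 2 and 3 with 2 mutant arrays. With slide as a block, the estimate for each gene therefore equals the difference between 3B7N array 1 and the 3 DMSO arrays, and 1248 genes rose (6.09%) and 1908 fell (9.31%). Of the 3070 genes called without the block, 2247 were called in the same direction with it, and 1597 with normexp background correction. The 75th percentile of the processed signal ran from 1685 to 2333 on the DMSO arrays and from 882.6 to 2022 on the 3B7N arrays, where array 2 was the dim one. That array also had the fewest probes well above background, 64.4%, against 69.7% to 74.6% on the other 5. Arrays of 1 group correlated across genes at 0.979 to 0.993, and no spot was saturated. Markers of photosynthetic tissue (6 of 6) and of root and root hair (10 of 10) were above background on all 6 arrays, and none of these 16 was called. Shifts short of 2-fold did occur. The root and root hair markers COBL9, EXPA18, RHS12 and RHS19 were lower on each treated array than on any DMSO array. All of these except RHS12 had an adjusted p under 0.05 in limma. The groups of the other root and root hair markers overlapped. The photosynthetic marker LHCB2.1 was higher, with an adjusted p under 0.05.

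**Figure D1:**
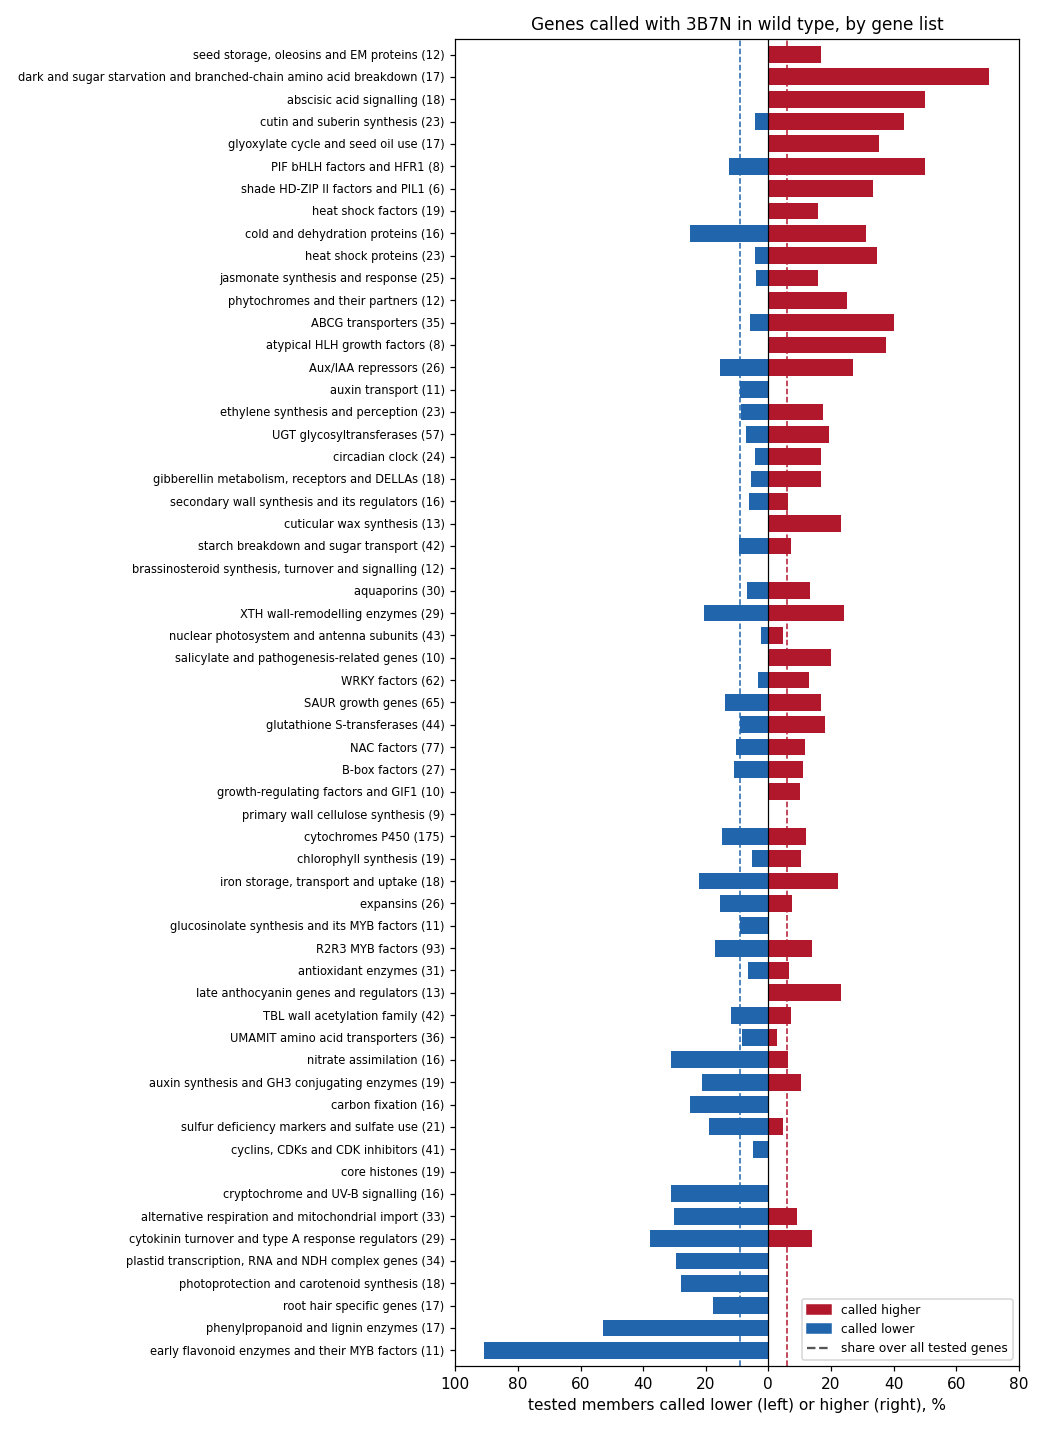
Share of the tested members of 59 gene lists that were called lower (left) or higher (right) with 3B7N in wild type, in percent, with the number of tested members in brackets and lists ordered by their median log2 difference. Dashed lines mark the shares over all 20487 genes, 5.89% higher and 9.09% lower, and the early flavonoid list (10 of 11 lower) and the starvation list (12 of 17 higher) reach farthest on either side.

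The PIF factors and the related factor HFR1 did not move as 1 block. Of these 8 factors, 4 rose and 1 fell, with a median difference of 0.71. PIF4, which promotes hypocotyl elongation in light and warmth, had relative signals of 0.53, 0.84 and 0.62 on DMSO and 3.59, 3.20 and 3.15 on 3B7N. Each 3B7N array exceeded each DMSO array by at least 2.30 log2 units, and the difference was 2.65 ± 0.22 (log2 ± SE, adjusted p = 1.04e-05). PIF5, listed as PIL6, gained 1.63 ± 0.19, PIF6, listed as PIL2, gained 1.69 ± 0.31 and PIF3 gained 1.17 ± 0.13. UNE10, also known as PIF8, went the other way, with 1.75, 1.38 and 1.56 on DMSO and 0.14, 0.04 and 0.12 on 3B7N. All 3 treated arrays lay at least 1.25 below the DMSO arrays for UNE10, a fall of 1.46 ± 0.13 (adjusted p = 1.39e-05). The remaining 3 factors were not called.

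Of 8 small helix-loop-helix proteins of growth control 3 rose and 0 fell. The list was not sorted by whether its members promote or restrain growth. PRE5 rose by 2.45 ± 0.36, PAR1 by 1.48 ± 0.27 and PRE1 by 1.32 ± 0.31. With slide as a block PAR1 stood at 0.95 (adjusted p = 0.0548) and PRE1 at 1.09 (adjusted p = 0.118), both without a call. Of 6 shade-response factors, 5 of class HD-ZIP II and PIL1, HAT2 rose from values of -1.17, -1.45 and -1.42 to 0.65, 0.24 and 0.29, a gap wider than the spread of either group (1.74 ± 0.16, adjusted p = 1.52e-05), and HB4 rose by 1.097 ± 0.24. In the phytochrome list, which holds the red-light receptors and their partners, 3 of 12 rose. PHYA, the receptor of far-red light, rose by 2.16 ± 0.18 and PKS4, a phytochrome substrate linked to hypocotyl bending, by 2.16 ± 0.33. FHL, which carries PHYA into the nucleus, had 1.31 ± 0.35, and its call ended without DMSO array 1 or with slide as a block (1.39, adjusted p = 0.0882).

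Components of the cryptochrome and UV-B pathways fell or did not pass: 5 of 16 fell and 0 rose (median -0.52, or -0.30 with slide as a block). The steepest fall was that of AT3G44450, the cryptochrome inhibitor BIC2, with -1.90, -1.93 and -1.31 on DMSO and -5.66, -5.82 and -5.80 on 3B7N. The closest DMSO and 3B7N arrays were 3.73 apart, a difference of -4.05 ± 0.21 (adjusted p = 5.02e-07). AT3G52740, the related inhibitor BIC1, fell by 2.68 ± 0.18, RUP2, a repressor of the UV-B receptor, by 2.01 ± 0.19, HYH, the close relative of HY5, by 1.33 ± 0.19, and CRY3, a cryptochrome of the organelles, by 1.29 ± 0.15. B-box factors, zinc-finger proteins that act with and against HY5, split evenly, with 3 of 27 higher and 3 lower (median 0.07). The shares over all genes were 5.89% higher and 9.09% lower. BBX17 had -2.97, -2.43 and -1.51 on DMSO and 2.13, 0.91 and 0.80 on 3B7N, so the lowest treated array was 2.31 above the highest DMSO array (3.58 ± 0.44, adjusted p = 0.00012). COL5 and BBX27 also rose, at 1.53 and 1.29, while BBX32 fell by 2.94 ± 0.37, BBX31 by 1.83 ± 0.45 and COL2 by 1.41 ± 0.25. BBX31 and BBX27 lost their calls with slide as a block (-1.11 and 0.96).

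Auxin-response genes moved in both directions. Aux/IAA proteins are mostly short-lived repressors of the auxin response, and many, though not all, of their genes are induced by auxin. Of 26 tested, 7 rose and 4 fell (median 0.36). IAA20 had -5.09, -4.13 and -4.52 on DMSO and 0.81, -0.07 and 0.46 on 3B7N. The treated arrays stood at least 4.05 above all DMSO arrays, a rise of 4.98 ± 0.28 (adjusted p = 7.45e-07). IAA6 rose by 4.39 ± 0.32, IAA5 by 3.26 ± 0.36 and IAA19 by 3.14 ± 0.25. IAA28, which is prominent in roots, had 0.90, 1.33 and 1.56 on DMSO and -0.39, -0.44 and -0.62 on 3B7N, and each treated array was below each DMSO array (-1.74 ± 0.19, adjusted p = 4.31e-05). IAA27, listed as PAP2 (-1.02; not with slide as a block), IAA33 (-1.70) and IAA31 also fell. IAA31 was above background on 0 of 3 treated arrays, at least 1.42-fold lower, and with normexp background correction the call of IAA33 ended and IAA31 turned to 0.04.

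SAUR genes encode small proteins, many of them induced by auxin, that promote cell expansion by acidifying the wall. Of 65 tested, 11 rose and 9 fell (median 0.15). AT5G66260, SAUR11, had -8.73, -7.03 and -7.57 on DMSO and -2.55, -2.39 and -1.92 on 3B7N. It was above background on 0 of the 3 DMSO arrays and on each 3B7N array, and was at least 26.1-fold higher (adjusted p = 2.16e-06). AT4G13790, SAUR25, was at least 7.49-fold higher in the same way. AT1G20470, SAUR60, had -0.25, -0.45 and -0.27 on DMSO and -4.24, -4.55 and -3.90 on 3B7N, and its groups were 3.45 apart in the other direction (-3.90 ± 0.21, adjusted p = 6.47e-07). AT4G00880, SAUR31, fell by 2.34 ± 0.20. Of 19 genes of auxin synthesis and conjugation 4 fell and 2 rose. The 4 that fell were YUCCA genes, which make auxin, by 1.11 (YUC4) to 1.86 (YUC5), YUC2 and YUC9 between them. With slide as a block YUC2 alone of the 4 was called, and with normexp none. The conjugating enzymes GH3.3 (2.21 ± 0.19) and WES1, also called GH3.5 (1.55 ± 0.22), rose. Among 11 auxin carriers, 1 was called. It was PIN5, a carrier of the endoplasmic reticulum, with -5.03, -4.56 and -4.99 on DMSO and -7.62, -7.75 and -9.47 on 3B7N. PIN5 was not above background on any treated array and was at least 3.39-fold lower (adjusted p = 0.000996), a call that ended with normexp.

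Gibberellin genes gave 3 of 18 higher and 1 lower. GA20OX1 and GA20OX2, which make gibberellin precursors, rose by 3.41 ± 0.34 and 1.15 ± 0.24, and the DELLA repressor gene RGL3 rose by 2.07 ± 0.24. GA3OX2, which makes the active hormone, fell by 1.28 ± 0.34, a call lost with slide as a block (-0.87, adjusted p = 0.21). None of 12 brassinosteroid genes was called (median 0.25), and 3 rose with median scaling.

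Of 29 cytokinin genes 11 fell and 4 rose (median -0.62). The list joins enzymes of cytokinin synthesis and breakdown with type A response regulators, which are induced by cytokinin and dampen its signal. ARR16, listed as RR16, had -2.79, -2.82 and -2.77 on DMSO and -5.96, -5.29 and -4.87 on 3B7N. Every treated array was at least 2.05 below the DMSO arrays (-2.58 ± 0.27, adjusted p = 3.79e-05). ARR15 was above background on 0 treated arrays and at least 2.66-fold lower. The cytokinin oxidases, which break the hormone down, split: CKX5 rose from -2.06, -2.07 and -2.34 to 0.25, 0.43 and 0.64 (2.60 ± 0.15, adjusted p = 8.23e-07) and CKX6 by 1.09 ± 0.15, whereas CKX2 was at least 3.76-fold lower and CKX4 fell by 1.27 ± 0.32. Of the LOG enzymes, which activate cytokinin, LOG8 rose by 1.68 ± 0.15, LOG2 was at least 2.77-fold higher and LOG3 fell by 1.26 ± 0.25. CKX4 and LOG3 were chosen after their values were seen, and neither was called with slide as a block. The 11 falls became 5 with slide as a block and 3 with normexp, under which ARR16, ARR15 and CKX2 lost their calls.

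**Figure D2:**
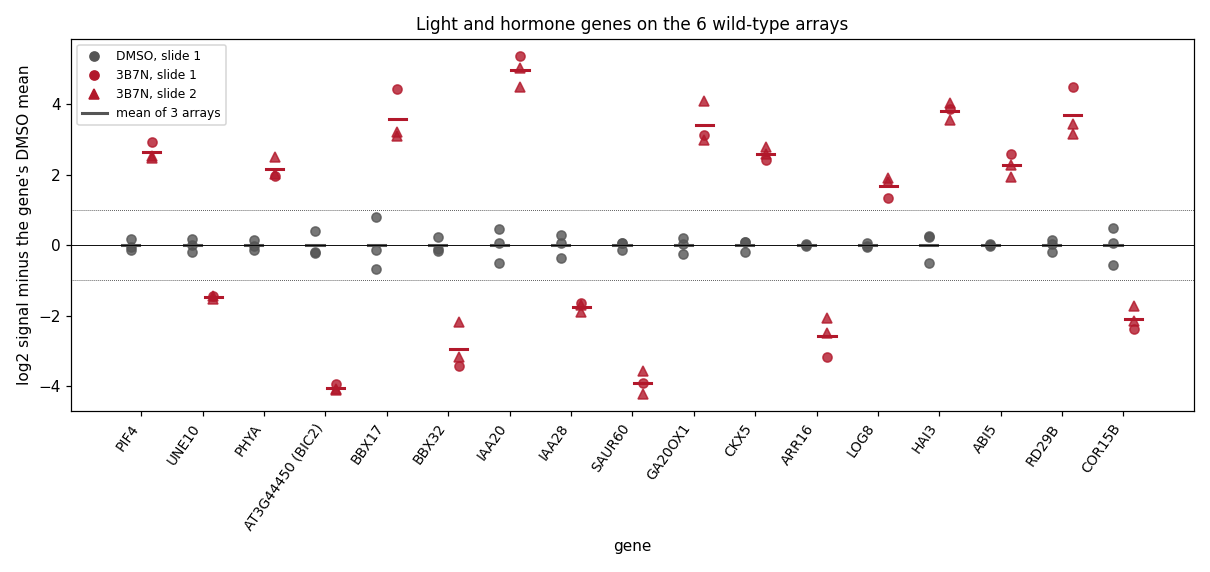
Log2 signal of 17 light and hormone genes on the 6 wild-type arrays, minus the mean of the 3 DMSO arrays of the same gene; circles are arrays of slide 1, triangles arrays of slide 2, bars group means, and dotted lines mark a 2-fold change. In all 17 genes the 3 treated arrays lie on 1 side of the 3 DMSO arrays, 3B7N array 1, the only treated array on slide 1, included.

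Of 18 abscisic acid signalling genes 9 rose and 0 fell (median 1.22). Abscisic acid is the hormone of drought and seed dormancy, and its clade A phosphatases restrain the signal while being induced by it. HAI3, 1 of these phosphatases, had -5.42, -4.65 and -4.68 on DMSO and -1.06, -0.86 and -1.37 on 3B7N. The groups were 3.28 apart (3.82 ± 0.34, adjusted p = 1.29e-05). HAI1 rose by 3.05 ± 0.33 and ABI2 by 1.60 ± 0.22. The transcription factor gene ABI5, which holds back germination and seedling growth, had -1.93, -1.95 and -1.99 on DMSO and 0.64, 0.32 and -0.02 on 3B7N, again with no overlap (2.27 ± 0.17, adjusted p = 4.59e-06), and ABF3 rose by 1.49 ± 0.19. The interaction was called for 7 of the 9.

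Of 16 cold and dehydration genes 5 rose and 4 fell (median 0.66). RD29B, listed as LTI65, a dehydration gene with abscisic acid elements in its promoter, had -0.97, -1.30 and -1.08 on DMSO and 3.39, 2.32 and 2.03 on 3B7N, every treated array above the DMSO arrays (3.70 ± 0.32, adjusted p = 1.17e-05). The galactinol synthase gene GolS2, which serves the making of raffinose sugars in dry cells, rose by 3.43 ± 0.38, the dehydrin gene RAB18 by 2.29 ± 0.34, RD29A (LTI78) by 1.52 ± 0.21 and GolS3 by 1.35 ± 0.28. The chloroplast cold proteins COR15A and COR15B fell, COR15B from -0.77, 0.29 and -0.15 to -2.58, -2.37 and -1.94 (-2.09 ± 0.33, adjusted p = 0.000605). CBF1 and CBF2, regulators of the cold response, were called lower at -1.90 and -1.28, but DMSO array 1 lay among the treated arrays for both. CBF1 had 0.66, 3.59 and 3.31 on DMSO and 0.36, 0.86 and 0.65 on 3B7N, and its call ended without DMSO array 2 or 3, without 3B7N array 1 or 3, and with slide as a block.

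Among 23 ethylene genes 4 rose and 2 fell. ACS2, an enzyme that makes the ethylene precursor, rose by 1.96 ± 0.17, the receptor gene ERS2 by 1.41 ± 0.14 and EBF2, which removes ethylene-response factors, by 1.03 ± 0.19. ACS8 was at least 2.05-fold higher, without a call once slide was a block. ACS10 (-1.07) and ACO1 (-1.11) fell, and neither call held with median scaling. Jasmonate genes gave 4 of 25 higher and 1 lower (median 0.55). ST2A, a sulfotransferase that inactivates hydroxyjasmonate, had -3.15, -2.92 and -3.20 on DMSO and 0.77, 0.30 and 0.64 on 3B7N, a gap of 3.22 (3.66 ± 0.28, adjusted p = 4.50e-06). The storage proteins VSP1 and VSP2, whose near-identical transcripts may share signal, rose by 1.997 ± 0.16 and 1.90 ± 0.18. JAZ10 had 2.0 and lost its call without DMSO array 1 or 3B7N array 2 and with slide as a block, and AOC2, a jasmonate synthesis gene, was called lower (-1.46) with overlapping groups. In the salicylate list PR5 (2.93) and PBS3 (1.46) rose of 10, but further probes of PR5 gave as little as -0.44 and PBS3 was not called with slide as a block.

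Of 24 clock genes 4 rose and 1 fell. LHY, a morning gene, had 1.49, 0.28 and 0.92 on DMSO and -1.11, -1.40 and -1.34 on 3B7N, with all treated arrays below the DMSO arrays (-2.17 ± 0.24, adjusted p = 5.57e-05). The evening gene GI rose by 1.88 ± 0.20, PRR7 by 1.98 ± 0.23, EPR1 (RVE7) by 2.25 ± 0.46 and AT5G64170, the coactivator LNK1, by 1.29 ± 0.20.

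Heat shock genes that rose were higher on all 3 treated arrays, but by uneven amounts. These genes encode chaperones that keep proteins folded, and factors that switch them on. HSFA2, the factor that sustains the heat response, had -4.26, -4.07 and -4.17 on DMSO and 2.86, 3.79 and 2.61 on 3B7N. The rise of 7.26 ± 1.25 (adjusted p = 0.00102) carried a wide SE. The fit pools the spread of all 4 groups, and in the mutant HSFA2 read from -0.59 to 4.84 on DMSO. HSFA7B rose by 4.40 ± 0.79, and HSFB1, listed as HSF4, at 1.19 (adjusted p = 0.0485), lost its call in 11 alternatives, the omission of any DMSO array among them. Of 23 heat shock proteins 8 rose and 1 fell. HSP101, a disaggregase, had -1.39, -1.62 and -1.74 on DMSO and 3.29, 3.65 and 1.74 on 3B7N, all treated arrays above the DMSO arrays and array 3 the lowest of them (4.48 ± 1.16, adjusted p = 0.0101). HSP70 rose by 3.20 ± 0.83 and the co-chaperone gene BAG6 by 4.56 ± 1.26, while the mitochondrial chaperonin gene HSP60-2 fell by 1.18 ± 0.18. With slide as a block HSP101 alone was called higher in place of 8, HSP70 standing at 3.01 (adjusted p = 0.0804), and without 3B7N array 1 or 2 the 8 became 4.

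Seed genes differed widely between arrays of the same group. All 12 storage protein, oleosin and EM genes had a positive difference (median 1.51, or 3.56 with slide as a block), and 2 were called. EM1, a late embryogenesis protein, had -2.92, -0.94 and -2.95 on DMSO and 1.92, 0.75 and 0.90 on 3B7N (3.46 ± 0.50, adjusted p = 0.000326). The oleosin gene OLEO2 had -7.62, -3.29 and -4.29 on DMSO and -1.86, -2.77 and -2.97 on 3B7N (2.53 ± 0.84, adjusted p = 0.0318) and lost its call without 3B7N array 1 or 2. The cruciferin gene CRA1 had -3.40, 1.33 and -3.65 on DMSO and 1.98, -2.42 and 1.48 on 3B7N: DMSO array 2 and 3B7N arrays 1 and 3 were high, the other 3 low, and the difference of 2.26 ± 1.42 was not called. Seed storage genes may share signal with near-identical copies. The log2 of the summed signal of 6 seed storage markers, of which 2 were above background on all 6 arrays, followed the same split, at -2.06, 2.47 and -2.36 on the DMSO arrays and 3.12, -1.04 and 2.30 on the 3B7N arrays. Its part in the other results was not tested.

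**Figure D3:**
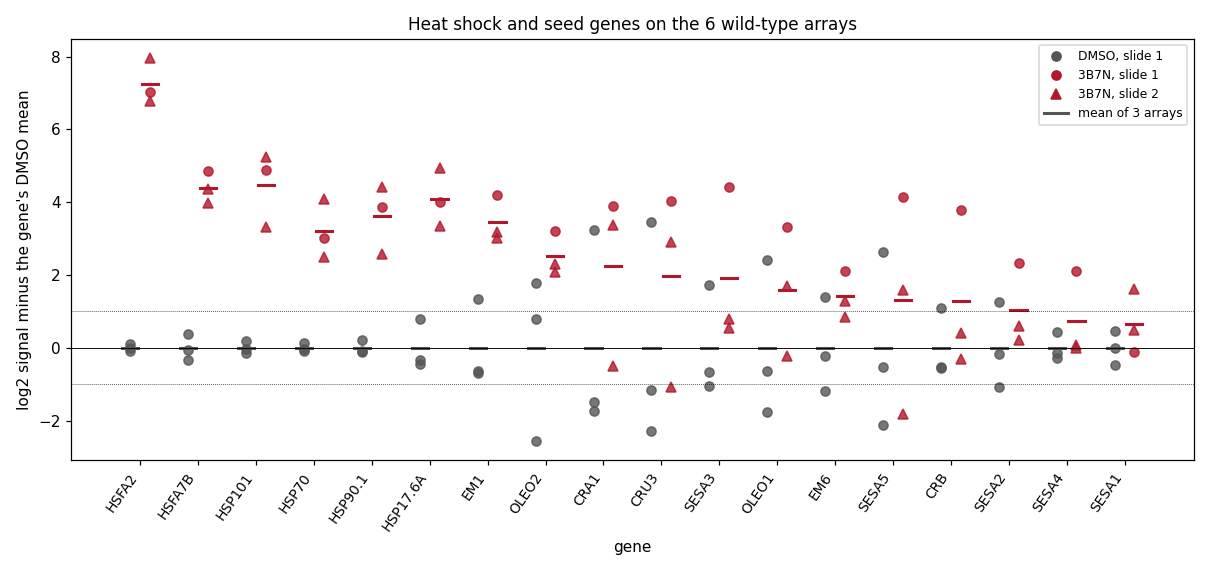
Log2 signal of 6 heat shock genes and the 12 seed genes on the 6 wild-type arrays, minus the DMSO mean of each gene; symbols as in the plot of light and hormone genes. Treated arrays of the heat shock genes lie above the DMSO arrays with a range of 1.91 among the treated arrays for HSP101. In all of the seed genes except EM1, OLEO2 and SESA4, DMSO array 2 lies above at least 1 treated array.

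Of 19 chlorophyll genes 2 rose and 1 fell (median 0.03), and both that rose encode protochlorophyllide reductases. PORA, which reduces protochlorophyllide and is normally abundant in the dark, had -8.58, -7.62 and -7.38 on DMSO and 2.31, 2.50 and 3.05 on 3B7N (10.48 ± 0.34, adjusted p = 1.50e-08). That probe was above background on 0 of 3 DMSO arrays and the 3 probes of the gene gave 5.78 to 10.48, so its size is uncertain. PORB rose from 3.57, 3.51 and 3.34 to 5.16, 5.61 and 5.57 (1.97 ± 0.21), and PCB2, the divinyl reductase, fell by 1.22 ± 0.27. In the mutant PORA read 3.74, 3.15 and 3.97 on DMSO and 4.97, 4.67 and 4.19 on 3B7N. Its interaction was -9.48 (adjusted p = 1.23e-06). Of 43 nuclear photosystem and antenna genes, LHCB3 (1.07) and LHCB4.2 (1.105) rose and LHCB4.3 (-1.88) fell, LHCB3 not with slide as a block. The list's median of 0.16 turned to -0.06 without 3B7N array 2 and to -0.03 with slide as a block.

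Of 34 genes of plastid transcription, plastid RNA and the NDH complex (subunits and assembly factors included), 10 fell and 0 rose (median -0.67), and 30 had a negative difference. CRR7, needed for the plastid NDH complex that cycles electrons around photosystem I, had 1.06, 1.40 and 1.34 on DMSO and -1.22, -1.02 and -0.54 on 3B7N. Each treated array lay at least 1.60 below each DMSO array (-2.19 ± 0.20, adjusted p = 1.33e-05). CRR22 and CRR42 fell by 1.59 ± 0.18 and 1.31 ± 0.20, CRR41 by 1.63 ± 0.31, and the NDH subunit gene NdhL (CRR23) by 1.13 ± 0.20. Outside the list the NDH subunit genes PnsL1 and PnsB3 fell by 1.81 ± 0.15 and 1.70 ± 0.15. The 10 falls were 6 with normexp, where CRR22 was not called, and CRR41 was not called with slide as a block.

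In carbon fixation 4 of 16 genes fell and 0 rose (median -0.24). CP12-2, a small protein that binds Calvin cycle enzymes in the dark, had 0.87, 1.32 and 1.62 on DMSO and -1.83, -0.79 and -1.09 on 3B7N, a drop of 1.66 between the closest arrays (-2.51 ± 0.26, adjusted p = 4.14e-05). The aldolase gene FBA1, the fructose bisphosphatase gene HCEF1 and SBPASE fell by 1.21, 1.14 and 1.02, and SBPASE lost its call with median scaling. Photoprotection and carotenoid genes had 5 of 18 lower, 0 higher and 16 negative (median -0.70). The xanthophyll enzyme gene CYP97A3 (LUT5) fell by 1.56 ± 0.16. The other 4, the light stress genes SEP1 and OHP, the violaxanthin de-epoxidase gene NPQ1 and the phytoene synthase gene PSY, fell by 1.03 to 1.09 and were not called with median scaling.

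Of 33 genes of alternative respiration and mitochondrial import 3 rose and 10 fell (median -0.54, 25 negative). AOX2, an alternative oxidase, had -7.72, -7.08 and -7.14 on DMSO and -2.73, -3.02 and -3.06 on 3B7N, all treated arrays at least 4.03 above the DMSO arrays, 1 of which was above background (4.38 ± 0.26, adjusted p = 1.20e-06). NDA2 (1.02) and AOX1D (1.202) also rose, and NDA1, an alternative NADH dehydrogenase induced by light, fell by 2.31 ± 0.25. The small TIM chaperones carry membrane proteins to the inner membrane, and TIM8 had 0.33, 0.47 and 0.31 on DMSO and -0.96, -0.69 and -0.64 on 3B7N, a shift of 0.96 between the closest arrays (-1.13 ± 0.12, adjusted p = 4.42e-05). TIM13 and TIM9 fell by 1.31 ± 0.20 and 1.07 ± 0.14. With normexp 6 of the 33 fell.

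Early flavonoid genes gave the highest share of falls of the 59 lists. Flavonoids are phenolic sunscreens that build up in light. Of 11 enzymes and MYB regulators 10 fell, 0 rose, and the groups of all 11 were apart in the lower direction (median -1.59, against -0.06 over all genes). Over all tested genes 28.2% were apart in that direction. CHIL, a chalcone isomerase-like protein, had 0.84, 0.85 and 0.74 on DMSO and -1.62, -1.51 and -0.97 on 3B7N, with the groups 1.72 apart (-2.18 ± 0.16, adjusted p = 4.16e-06). CHS, listed as TT4, fell by 2.29 ± 0.30, FLS1, which makes flavonols, by 2.41 ± 0.20, F3H by 1.71 ± 0.23, TT7 by 1.59 ± 0.16 and TT5 by 1.38 ± 0.17. The glucosyltransferase gene UGT78D2 and the rhamnosyltransferase gene UGT78D1 fell by 1.72 and 1.45, and the regulators MYB12 and MYB111 by 1.54 and 1.27. MYB111 was not called with slide as a block (-0.94, adjusted p = 0.113). The late anthocyanin list gave 3 of 13 higher, 0 lower and a median of -0.06. MYB75, listed as PAP1, was at least 2.05-fold higher, TT19 (GSTF12) had 1.55 on its brightest probe and -1.52 on another, and 5MAT had 1.36. None of these 3 calls held with normexp.

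The phenylpropanoid pathway feeds flavonoids and lignin. Of 17 of its enzymes 9 fell, 0 rose, and 16 had treated arrays below all DMSO arrays (median -1.07). Over all tested genes 28.2% had treated arrays below all DMSO arrays. PAL1 and PAL2 encode the entry enzyme, phenylalanine ammonia-lyase, and PAL1 had 3.64, 3.70 and 3.31 on DMSO and 1.22, 1.39 and 1.70 on 3B7N. The closest arrays of its groups were 1.61 apart (-2.11 ± 0.16, adjusted p = 4.17e-06), and PAL2 and PAL4 fell by 1.93 ± 0.12 and 1.40 ± 0.16. FAH1, a hydroxylase that leads to sinapate and syringyl lignin, had 0.44, 0.43 and 0.11 on DMSO and -2.81, -2.94 and -2.24 on 3B7N, a gap of 2.35 (-2.99 ± 0.19, adjusted p = 1.55e-06). ATCAD4, of the last step to lignin alcohols, fell by 1.87 ± 0.14. In the mutant 8 of the 17 fell with 3B7N, and the interaction was called for 6. FAH1 stood at 0.14 there (interaction 3.13, adjusted p = 2.94e-05), while PAL1 stood at -1.70 and its interaction was not called (0.41, adjusted p = 0.183).

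**Figure D4:**
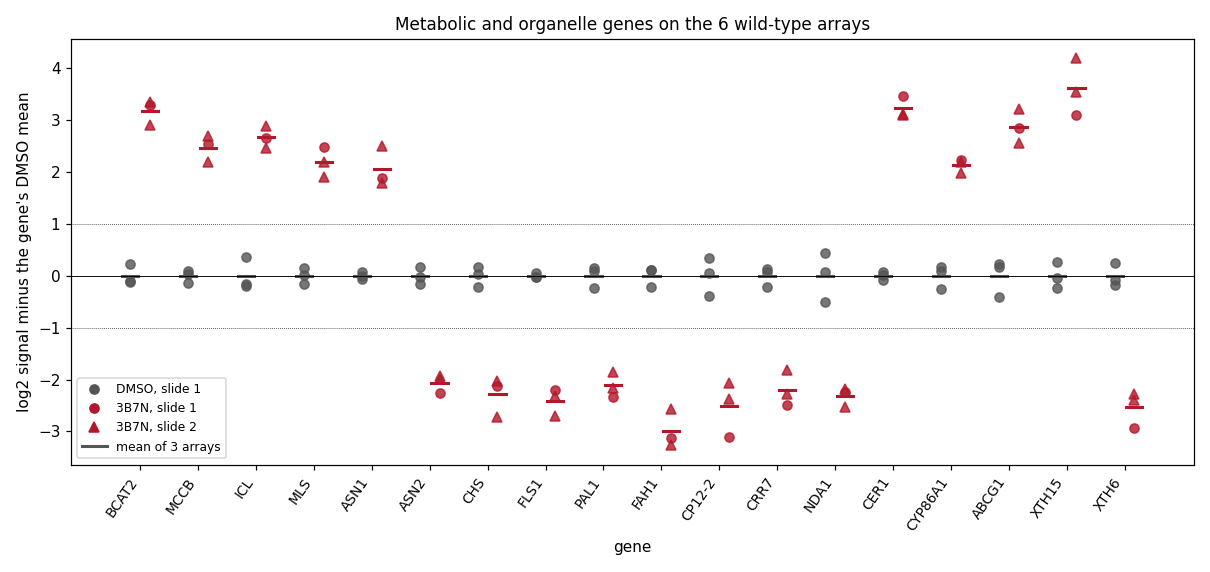
Log2 signal of 18 metabolic, organelle and wall genes on the 6 wild-type arrays, minus the DMSO mean of each gene, with symbols as in the plot of light and hormone genes. The 3 treated arrays lie beyond the dotted 2-fold lines in each of the 18 genes, above in 9 and below in 9.

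Cutin and suberin are lipid polymers of the shoot surface and of root barriers, and of 23 genes 10 rose and 1 fell (median 1.01). CYP86A1, a fatty acid hydroxylase of root suberin, had -1.2, -1.28 and -1.61 on DMSO and 0.87, 0.83 and 0.61 on 3B7N. Treated arrays lay at least 1.81 above the DMSO arrays (2.14 ± 0.14, adjusted p = 2.39e-06). The acyltransferase genes GPAT6 and GPAT5 rose by 2.47 ± 0.20 and 1.80 ± 0.22, the regulator MYB93 by 2.05 ± 0.20 and the elongase gene KCS2 by 2.01 ± 0.22, while CYP77A6, of flower cutin, fell by 1.44 ± 0.20. In the mutant 9 of the 23 rose, and for CYP86A1 the change there was the larger (3.69, interaction adjusted p = 0.000333), whereas KCS2 stood at -0.98 (interaction adjusted p = 8.28e-05).

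Wax genes gave 3 of 13 higher and 0 lower. CER1, of alkane synthesis, had -0.60, -0.67 and -0.76 on DMSO and 2.79, 2.43 and 2.44 on 3B7N, with 3.03 between the groups (3.23 ± 0.15, adjusted p = 2.46e-07). WSD1, a wax ester synthase, had -8.88, -9.19 and -9.77 on DMSO and -3.44, -3.26 and -3.06 on 3B7N, above background on no DMSO array and on each treated array, and was at least 13.4-fold higher (adjusted p = 2.46e-07). CYP96A15, the midchain alkane hydroxylase, was at least 3.54-fold higher.

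ABCG transporters, which export lipids, hormones and defence compounds, had 14 of 35 higher and 2 lower (median 0.49). ABCG1, of suberin formation, had -1.24, -1.18 and -1.82 on DMSO and 1.43, 1.80 and 1.14 on 3B7N, the closest arrays 2.32 apart (2.87 ± 0.21, adjusted p = 3.83e-06). ABCG40, a transporter that brings in abscisic acid, was at least 26.2-fold higher, ABCG15 rose by 2.41 ± 0.19, ABCG19 by 2.51 ± 0.22 and ABCG31 by 1.84 ± 0.13. ABCG8 (-1.94) and ABCG17 (-1.32) fell, and neither was called with normexp.

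Wall-remodelling enzymes were split. XTH enzymes cut and rejoin xyloglucan, and of 29 genes 7 rose and 6 fell (median 0.24, or -0.20 with slide as a block, where 4 rose and 8 fell). XTH15 had 1.88, 2.18 and 1.68 on DMSO and 5.01, 6.11 and 5.47 on 3B7N, rising by 3.61 ± 0.26 (adjusted p = 3.47e-06), and XTH30 rose by 1.57 ± 0.19. XTH6 had 3.72, 3.62 and 4.04 on DMSO and 0.86, 1.52 and 1.40 on 3B7N, falling by 2.53 ± 0.24 (adjusted p = 2.28e-05), and XTH32 and XTH7 fell by 2.34 ± 0.30 and 1.78 ± 0.27. The groups of each of these 5 genes were apart. Expansins, which loosen walls, gave 2 of 26 higher (EXLA2 and EXPA8) and 4 lower (EXPA1, EXPA10, EXPA15, EXPA17), EXPA1 falling by 1.75 ± 0.25. The calls of EXPA8, EXPA10, EXPA15 and EXPA17 did not hold with slide as a block. None of 9 primary wall cellulose genes was called. Of 16 secondary wall genes the laccase gene LAC17 rose (1.07; not with slide as a block) and the regulator MYB63 fell (-1.49). In the mutant 9 of these 16 fell, and the interaction was called for 8, among them the cellulose synthase gene CESA4 at 0.28 in wild type and -1.22 in the mutant (interaction adjusted p = 0.00906). CESA4 was chosen after its values were seen. TBL proteins, which acetylate wall polymers, had 3 of 42 higher and 5 lower, where over all genes 5.89% rose and 9.09% fell. Among them were TBL15 (-2.62), TBL37 (1.38) and TBL4, which was at least 1.51-fold higher.

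Genes that cells use when sugar runs short gave the highest share of rises: 12 of 17 rose and 0 fell (median 1.43). They include the enzymes that burn leucine, isoleucine and valine. BCAT2, listed as BCAT-2, which starts that breakdown, had 1.22, 1.2 and 1.55 on DMSO and 4.61, 4.68 and 4.23 on 3B7N, a separation of 2.68 (3.18 ± 0.20, adjusted p = 1.55e-06). MCCB, a subunit of methylcrotonyl-CoA carboxylase, rose from 2.99, 2.75 and 2.92 to 5.42, 5.57 and 5.07 (2.47 ± 0.23, adjusted p = 1.72e-05). DIN4, of the branched-chain dehydrogenase, rose by 1.43 ± 0.16, the glucosidase gene DIN2 by 1.95 ± 0.18 and the dark-induced asparagine synthetase gene ASN1 by 2.06 ± 0.24. The interaction was called for all 12, each with a lower value in the mutant, where 0 of the 17 were called. Seedlings draw on seed oil through fatty acid breakdown and the glyoxylate cycle. Of 17 genes of these steps 6 rose, 0 fell, and 16 had treated arrays above all DMSO arrays (median 0.85). Over all tested genes 21.7% had treated arrays above all DMSO arrays. Malate synthase, MLS, had 0.13, 0.25 and -0.06 on DMSO and 2.59, 2.01 and 2.31 on 3B7N, 1.75 between the closest arrays (2.20 ± 0.17, adjusted p = 4.32e-06). Isocitrate lyase, ICL, rose by 2.67 ± 0.24, ACX1 by 1.35 ± 0.12, CSY3 by 1.17 ± 0.15 and PKT3 (KAT2) by 1.15 ± 0.16.

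Of 16 nitrate assimilation genes 1 rose and 5 fell. ASN2, another asparagine synthetase, had 3.55, 3.23 and 3.36 on DMSO and 1.11, 1.39 and 1.45 on 3B7N, with each treated array at least 1.78 below the DMSO arrays (-2.06 ± 0.20, adjusted p = 2.47e-05). The others that fell were the nitrite reductase gene NIR1 (-1.25), the glutamine synthetase gene GSR1 (-1.05), LBD38 (-1.06) and the haemoglobin gene HB1 (-1.80), and GDH1 rose (1.197). Sulfur genes gave 1 of 21 higher and 4 lower. The sulfate transporter gene SULTR3;2 rose by 2.63 ± 0.18 while AST56 (SULTR2;2) fell by 2.24 ± 0.15, APR2, of sulfate reduction, by 1.84 ± 0.21 and SULTR3;5 and ATSDI1 by 1.80 and 1.08. A further probe of SULTR3;2 gave 0.67. Of 11 glucosinolate genes the regulator MYB28 fell, above background on no treated array and at least 4.35-fold lower.

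Of 18 iron genes 4 rose and 4 fell. VIT1, which loads iron into vacuoles, had -7.94, -7.07 and -6.66 on DMSO and -2.64, -3.34 and -2.79 on 3B7N, 1 DMSO array above background (4.30 ± 0.35, adjusted p = 8.26e-06), the ferritin genes FER1 and FER2 rose by 1.67 ± 0.18 and 1.30 ± 0.17, and AT1G21140 (VTL1) by 1.01 ± 0.16. The nicotianamine synthase genes NAS1, NAS2 and NAS4, whose product carries iron, fell by 1.55, 2.22 and 1.57, and FRU, the regulator of iron uptake, by 1.07. With normexp 1 of the 18 fell, and FRU was not called with slide as a block. Starch and sugar transport genes gave 3 of 42 higher and 4 lower, near the shares over all genes (5.89% higher and 9.09% lower). With slide as a block 4 were higher and 7 lower. SUS3, a sucrose synthase, rose by 2.28 ± 0.20, and SWEET3 (1.90) and SWEET4 (1.22) rose as well. CT-BMY (BAM3), a chloroplast beta-amylase that breaks down starch, fell by 2.40 ± 0.29, GBSS1, of amylose synthesis, by 2.22 ± 0.26, SAG29 (SWEET15) by 1.98 ± 0.29, and BAM6 was at least 3.14-fold lower.

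Large enzyme and transporter families were mixed, and over all tested genes 5.89% rose and 9.09% fell. Glutathione S-transferases, which conjugate reactive and foreign compounds, had 8 of 44 higher and 4 lower. GSTU23 had -2.28, -2.22 and -2.09 on DMSO and -4.93, -5.02 and -4.77 on 3B7N (-2.71 ± 0.19, adjusted p = 3.30e-06), 2.50 between the closest arrays, GSTF3 rose by 1.92 ± 0.16 and GSTU3 was at least 3.63-fold higher. UGT glycosyltransferases gave 11 of 57 higher and 4 lower, among them UGT71B8 (3.096 ± 0.27) and UGT74E2, which glucosylates indole-3-butyric acid (1.76 ± 0.16). UGT84A1, of sinapate esters, fell by 2.16 ± 0.22. Cytochromes P450 had 21 of 175 higher and 26 lower. HPL1, hydroperoxide lyase of leaf volatiles, had -0.47, -0.92 and -0.57 on DMSO and -3.51, -4.19 and -3.39 on 3B7N, 2.47 between the closest arrays (-3.04 ± 0.21, adjusted p = 2.56e-06), and CYP81H1 and CYP706A3 fell by 2.23 ± 0.20 and 1.88 ± 0.16. Aquaporins gave 4 of 30 higher, with the root tonoplast gene TIP2;3 at 2.40 ± 0.33 and the seed gene TIP3;1 at 2.60 ± 0.63, and 2 lower, NIP6;1 (-2.31) and NLM1 (-1.44). UMAMIT amino acid transporters had 1 of 36 higher (UMAMIT33, 1.31) and 3 lower (UMAMIT25 at -2.37, UMAMIT12 and UMAMIT21). Antioxidant enzymes gave 2 of 31 each way, with GPX7 (-3.14) and FSD1 (-1.02) lower, CAT1 higher on its brightest probe (1.17; another gave -0.07) and APX2 at least 2.14-fold higher, without a call once slide was a block.

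Of the transcription factor families, WRKY genes had 8 of 62 higher and 2 lower, which became 1, WRKY45, and 0 with normexp. WRKY71 was at least 3.69-fold higher and WRKY45 rose by 1.498 ± 0.18, while WRKY54 (-1.73) and WRKY59 (-1.57) fell. NAC genes gave 9 of 77 higher and 8 lower. NAC003 had -0.15, -0.14 and -0.18 on DMSO and -2.48, -2.60 and -2.30 on 3B7N, the treated arrays at least 2.11 down (-2.30 ± 0.17, adjusted p = 3.83e-06), and NAC074 fell by 2.80 ± 0.31. NAC6, the senescence factor ORE1, rose by 1.74 ± 0.18. R2R3 MYB genes gave 13 of 93 higher and 16 lower, with MYB121 rising by 3.70 ± 0.33 and MYB10 by 2.48 ± 0.26. Growth-regulating factors promote leaf cell number, and of 9 of them and the coactivator gene AN3 (GIF1) 1 was called. GRF7, at -6.65, -6.94 and -6.68 on DMSO and -1.93, -2.83 and -1.35 on 3B7N, rose by 4.72 ± 0.29 (adjusted p = 1.47e-06).

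Of 41 cyclins, kinases and inhibitors 0 rose and 2 fell, CYCA3;2 by 1.28 ± 0.21 and the inhibitor gene ICK5 (KRP7) by 1.40 ± 0.19, and 32 had a negative difference (median -0.32). None of 19 core histones was called (median -0.34), and 2 fell with slide as a block. Root hair genes had 3 of 17 lower, RHS8 at -1.64, RHS18 at -1.22 and MES15 (RHS9) at -1.38, and 15 negative (median -0.76). With slide as a block RHS8 alone stayed called. Of 4 guard cell markers FAMA fell (-1.49). Of the others HT1 was lower and KAT1 and EPF1 were higher, all without a call. HT1 and KAT1 had an adjusted p under 0.05 in limma. Of flower markers SEP3 fell (-1.62), and PI, the only other flower marker tested, was higher without a call. PRK1, the only pollen marker tested, was at background on all DMSO arrays and was called higher. The part of these markers in other results was not tested.

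Apart from genes already described, the 12 highest differences among called genes with a symbol and separate groups included ENODL1, an early nodulin-like protein, with -6.27, -6.63 and -6.63 on DMSO and 0.11, 0.40 and 0.07 on 3B7N, 6.35 between the groups (6.71 ± 0.25, adjusted p = 3.25e-08). HEC2, a bHLH factor of fruit tissue and of light signalling, had -4.41, -3.96 and -4.25 on DMSO and 0.38, 0.66 and 0.59 on 3B7N, the treated arrays within 0.28 of each other (4.75 ± 0.17, adjusted p = 3.25e-08). The small heat shock genes HSP17.4 (at least 12.1-fold higher) and HSP23.6-MITO (5.18) completed them, and neither was called with slide as a block. Among the 12 lowest, PPT2, a plastid phosphoenolpyruvate transporter, had 0.03, -0.47 and 0.36 on DMSO and -4.57, -4.56 and -4.67 on 3B7N (-4.57 ± 0.28, adjusted p = 1.33e-06). The closest arrays of its groups were 4.09 apart. TRY, an inhibitor of leaf hair formation, had -1.47, -1.46 and -1.59 on DMSO and -5.22, -5.14 and -5.08 on 3B7N, all treated arrays at least 3.50 down (-3.64 ± 0.23), and DOT3, of vein patterning, fell by 3.66 ± 0.19. CYP706A6 (-6.05), the receptor kinase gene RK2 (-4.62), the thionin gene THI2.2 (-4.36), RL4 (-4.12), CYP71A22 (-3.75) and CYP71B36 (-3.72) fell as well, and the phosphatase gene PAP16 was at least 7.48-fold lower. GH9B15, a cellulase-type enzyme, had -1.42, -1.03 and -0.77 on DMSO and -8.98, -3.33 and -3.62 on 3B7N, so 3B7N array 1 read far below the other treated arrays (-4.23 ± 1.11).

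The change in wild type was set against the change in cry1cry2 by the interaction. In the mutant 431 genes rose and 334 fell. Of the 1207 genes that rose in wild type 167 also rose in the mutant (13.8%) and 33 fell there, and the interaction was called for 800 (66.3%), 768 of them with the smaller change in the mutant. Of the 1863 that fell, 116 also fell (6.23%), 84 rose, and the interaction was called for 1389 (74.6%), 1385 with the smaller change in the mutant. The median difference of the genes that rose was 1.56 in wild type and 0.06 in the mutant, and of those that fell -1.33 and 0.19. The wild-type medians follow from the choice of the genes. The interaction subtracts the same wild-type difference that chose them, so the shares with a smaller change in the mutant are partly fixed by that choice. Neither the interaction nor these medians give the level at which the mutant stood on DMSO. ENODL1 stood at -1.03 in the mutant (interaction -7.74, adjusted p = 5.87e-07) and HEC2 at 0.39 (interaction -4.36). Wild type and mutant groups lie on partly different slides, and with slide as a block the interaction was called for 2852 genes in place of 3813.

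**Figure D5:**
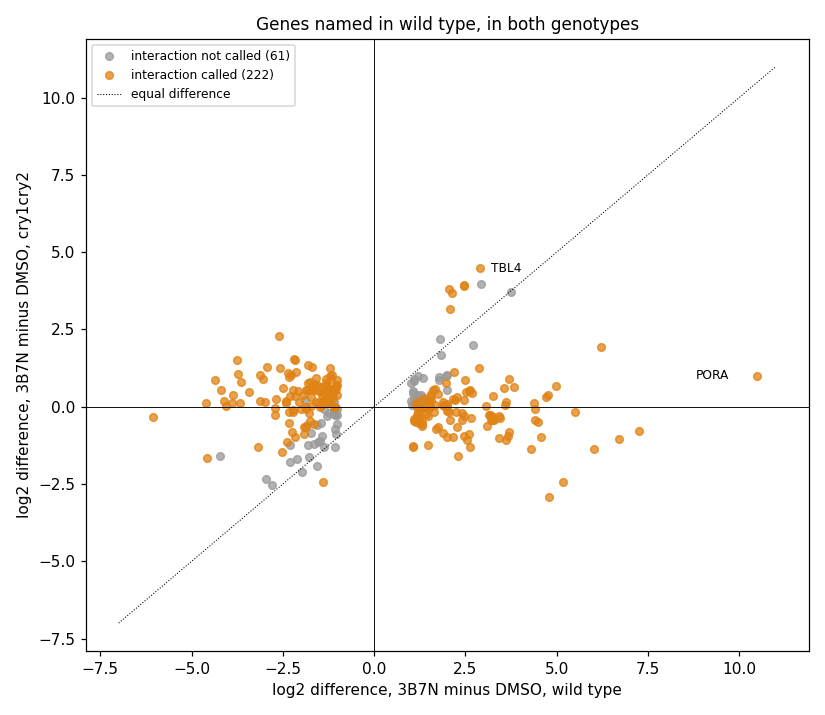
Log2 difference between 3B7N and DMSO in wild type (horizontal) and in cry1cry2 (vertical) for the 283 genes of the naming rule that were called in wild type; orange points mark the 222 with a called interaction, grey points the other 61, and the dotted line marks equal differences. The points spread farther along the horizontal axis than along the vertical one, with PORA at the far right (10.48 in wild type, 0.99 in the mutant). That spread is partly fixed, because the genes were chosen by their call in wild type.

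The authors' deposited table lists 3453 probes for this comparison, with folds of 2 to 149.3 that carry no sign. Of these probes, 2349 stand for a gene tested here, and 874 of those genes were called higher, 1309 lower and 166 not called. For 887 called genes the probe used here is not in that table.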

How the data were processed

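RNA of whole seedlings was measured on 12 one-colour arrays, 1 per sample and 3 per group. The authors deposited scanner output as intensity values made with Agilent Feature Extraction 10.7.3.1, per the file headers, background-subtracted and not scaled between arrays. They also deposited a table of unsigned fold changes, a linear ratio per probe, for which no filter is stated.

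Control spots were left out, as were 49 probes of which a spot was flagged as an outlier, spots of 1 probe were averaged, and log2 signals were set relative to the 75th percentile of each array. Of 43603 probes 34348 matched a locus in the RefSeq table of assembly TAIR10.1, and 9255 did not and were not used. A probe was kept (32759) if any of the 4 groups had it well above background on its 3 arrays, and the brightest kept probe stood for its gene. The number of arrays limits the precision. 1 fit of 4 group means was made with limma 3.58.1 (lmFit, eBayes) in R 4.3.3, with Benjamini-Hochberg adjustment over 20487 genes. Calls need an adjusted p under 0.05 and a log2 difference of at least 1. Where no probe of a gene was above background in a group, the fold is a bound against the lowest signal well above background, written "at least". The fit was tested on simulated data with known changes. Their noise was independent between genes and arrays and held no slide effect, so that test does not cover the slide layout.

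The text names, among called genes with a symbol and separate groups, the 12 highest and 12 lowest, any member of lists with up to 12 tested genes, in longer lists the 5 called members with the smallest adjusted p and up to 4 of the rarer direction, all members of counts up to 5, and the genes of the interaction with the smallest p. The members, the 59 gene lists and the tests were chosen with earlier results of these data known. Alternatives were other scaling, normexp background correction, slide and replicate number as blocks, other filters, other probe summaries and the omission of each array.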

Additional observations from a re-analysis of the deposited data

Results flagged for a closer look

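For 10 genes called in wild type, 5 in each direction, the difference made by 3B7N differed between the genotypes with the smallest p of all genes with a symbol. The values are the interaction on the log2 scale, which is the difference in cry1cry2 minus that in wild type. Among genes that fell in wild type, the interaction was 4.44 for TRY, 3.78 for DOT3, 3.44 for NEET, an iron-sulfur protein gene, 3.17 for PnsL1 and 3.00 for PnsB3. Among genes that rose in wild type it was -9.48 for PORA, -7.74 for ENODL1, -7.41 for WSD1, -4.36 for HEC2 and -3.66 for CER1. PORA and WSD1 were not above background on the DMSO arrays of wild type with the probe used, so the sizes of their interactions are uncertain.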

How the results depend on the processing

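All 3070 calls of the main setting kept their sign under median and quantile scaling, the replicate block, the mean over probes and each omission of an array, 3069 with slide as a block and 2977 with normexp background correction. These counts are partly fixed, because a call needed a log2 difference of at least 1 in size. Median scaling moves the differences of all genes by the same amount, and the slide block reuses arrays that made the calls. Normexp, with its other input signal and its offset, lowered the counts to 789 higher, 826 lower and 2023 for the interaction. Without a minimum fold 3371 genes were higher and 4815 lower. Omission of 1 array gave 1115 to 1316 higher, 1657 to 2091 lower and 3600 to 3957 for the interaction. The same-numbered arrays of the 2 groups had deviations that correlated at -0.01, 0.25 and -0.14, and arrays of other numbers at -0.16 to 0.21. These few values do not settle whether the numbers pair the samples. With the replicate block 1189 rose, 1857 fell and the interaction was called for 3759. Of 373 genes under the naming rule 283 were called, and of these 43 lost their call with slide as a block, 79 with normexp, 23 with median scaling, 14 with quantile scaling and 9 to 27 when an array was left out. IAA31 turned to 0.0385 with normexp. The cause was not tested. Dim probes limit the folds of 131 genes that rose and had no probe above background on any DMSO array and of 91 that fell and had none on any 3B7N array.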
